A study of Mus musculus with 2 samples.

Results

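Elane, Prtn3, Ctsg, Mpo, Ms4a3 and Fcnb encode proteins that mouse neutrophils load into, or express at the stage of, their primary granules. They were taken as a list of 6 genes by name from the 32285 genes counted in gingival CD11b+ cells. No cut on a measured value made the list, but it was chosen with earlier results of these data known. Transcripts were counted in 2 single-cell libraries, 1 from mice given a 10% Tet2-/- bone marrow transplant (BMT) and 1 from mice given a 10% Tet2+/+ BMT. From 12 weeks after transplantation, periodontitis was provoked in all recipients for 5 days with a ligature, a thread tied around a tooth that inflames the gum. Tet2 encodes a dioxygenase that converts 5-methylcytosine to its hydroxymethyl form; the deleted part of the gene, the number of animals behind each library and a mark of which cells came from the 10% donor marrow are not given in the sources used here. The protocol names a CD45.2+CD11b+ sort for the Tet2-/- library and a CD45+CD11b+ sort for the Tet2+/+ library, while both titles name CD45.2+CD11b+. Each group is 1 library, so the spread between animals is unknown, nothing was tested and the values describe this pair of libraries. Intervals are exact at 95% and cover counting error only.

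Neutrophils build their granules in a fixed order as they mature. Primary, or azurophil, granules are filled first, at the promyelocyte stage, while the cells still divide. Secondary granules, which hold lactoferrin and the cathelicidin Camp, come next, and tertiary granules last. Transcription of primary granule genes stops early, so a circulating or tissue neutrophil carries the proteins but little of the RNA. The gum normally receives finished neutrophils from the blood, whereas the promyelocyte stage belongs to the bone marrow. The 6 genes serve different roles. Elane, Prtn3 and Ctsg encode the serine proteases neutrophil elastase, proteinase 3 and cathepsin G. Mpo encodes myeloperoxidase, which makes hypochlorous acid from hydrogen peroxide and chloride. Ms4a3 encodes a membrane protein of the MS4A family that in mice marks granulocyte and monocyte progenitors. Fcnb encodes ficolin B, a lectin that binds sugars on microbes and can start the lectin pathway of complement.

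In mm10, Prtn3 (ENSMUSG00000057729) lies on chr10:79874476-79883174 and Elane (ENSMUSG00000020125) on chr10:79886247-79888215, both on the plus strand and 3072 bases apart. Ctsg (ENSMUSG00000040314) lies on chr14:56099881-56102574 on the minus strand and Mpo (ENSMUSG00000009350) on chr11:87793581-87804413 on the plus strand. Ms4a3 (ENSMUSG00000024681) lies on chr19:11629496-11640851 and Fcnb (ENSMUSG00000026835) on chr2:28076378-28084885, both on the minus strand. All 6 are annotated as protein coding. The annotated span of Prtn3 overlaps Plppr3 and that of Mpo overlaps Gm11505, in each case on the other strand. The 250 bases before the transcription start are shown for 3 of the genes, because Elane and Prtn3 are neighbours in the genome and Fcnb followed a different course over the classes. They are RefSeq sequences of GRCm38.p6, at chr10:79886062-79886311 (plus strand), chr10:79879417-79879666 (plus strand) and chr2:28084879-28085128 (minus strand), read 5′ to 3′ with motif matches in capitals. The RefSeq starts differ from the gene starts above.
Elane: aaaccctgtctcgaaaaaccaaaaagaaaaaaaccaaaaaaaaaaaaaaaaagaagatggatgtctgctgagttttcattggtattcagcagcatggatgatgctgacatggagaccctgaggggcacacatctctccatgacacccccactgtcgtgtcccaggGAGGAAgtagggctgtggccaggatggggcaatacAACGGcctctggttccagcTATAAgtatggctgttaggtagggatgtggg
Prtn3: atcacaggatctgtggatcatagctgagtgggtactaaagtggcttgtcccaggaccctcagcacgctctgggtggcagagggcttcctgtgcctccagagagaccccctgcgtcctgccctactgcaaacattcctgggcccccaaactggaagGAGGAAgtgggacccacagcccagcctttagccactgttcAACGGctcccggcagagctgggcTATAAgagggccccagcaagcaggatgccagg
Fcnb: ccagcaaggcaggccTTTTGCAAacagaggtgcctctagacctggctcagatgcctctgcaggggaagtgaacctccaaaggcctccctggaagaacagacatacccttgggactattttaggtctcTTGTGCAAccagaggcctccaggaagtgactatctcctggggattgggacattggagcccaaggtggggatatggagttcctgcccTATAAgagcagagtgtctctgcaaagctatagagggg

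The letters searched on both strands were TTGCNNAA for C/EBP factors, GAGGAA for ETS factors such as PU.1, AACGG for Myb, TGTGGT for Runx and TATAA for a TATA box, and no matches overlapped. Elane and Prtn3 held the ETS motif, the Myb motif and the TATA box in the same order, at positions -85 to -80, -50 to -46 and -31 to -27 before the start of Elane and at -95 to -90, -55 to -51 and -32 to -28 before that of Prtn3. All of these 3 motifs were present in 169 of 32851 promoters of the same length (0.514%). That count required neither their order nor a strand or position. The 3 motifs are those found in both genes, so the share is not that of a set named beforehand. Fcnb had neither GAGGAA nor AACGG, but held TATAA at -37 to -33 and matched TTGCNNAA more than once, first at -235 to -228. Among the 6 genes, TTGCNNAA was found in 1, GAGGAA in 4, AACGG in 2, TGTGGT in 1 and TATAA in 4, against 9.56%, 23.3%, 14.5%, 14% and 22.8% of all promoters. A match describes letters and not a bound site.

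After filtering, 9596 cells of the Tet2-/- library and 11672 cells of the Tet2+/+ library were kept, with a median of 5920 and 5009 UMIs (unique molecular identifiers, 1 for each captured transcript). Levels are CPM, the counts (UMIs) of a gene in a class and library scaled to 1000000 UMIs of that class. UMIs come from the 3′ end of transcripts, so levels are compared within a gene. Kept cells shared 31 barcodes between the libraries, 0.323% and 0.266% of each. Sex-linked transcripts separated the libraries in nearly all progenitor-like cells: 42 of 44 Tet2-/- progenitor-like cells carried Xist and no Y-linked UMI, and 24 of 29 Tet2+/+ progenitor-like cells carried Y-linked UMIs and no Xist. The cycling neutrophil and monocyte classes were split in the same way. Of 245 Tet2-/- cycling monocyte-like cells, 228 carried Xist alone and 2 carried Y-linked UMIs alone. Of 119 Tet2+/+ cells of that class, 0 carried Xist alone and 97 Y-linked UMIs alone. Among cycling immature neutrophil-like cells these counts were 161 and 1 of 203 Tet2-/- cells. They were 0 and 80 of 131 Tet2+/+ cells. In these classes the sex of the cells cannot be told apart from the genotype. Elsewhere the Tet2-/- library was mixed. Y-linked UMIs alone were carried by 155 of its mature neutrophil-like, 33 of its immature neutrophil-like and 18 of its monocyte-like cells, beside 564, 625 and 858 cells with Xist alone. The Tet2+/+ library had Xist alone in 1 of its mature neutrophil-like, 0 of its immature neutrophil-like and 0 of its monocyte-like cells. The libraries thus differed in sex in these classes too, and sex cannot be told apart from genotype there either.

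Cells were clustered without the 6 genes and named from other markers, so that their level in a class is not what defined it, although genes that vary with them took part. The progenitor-like class, led by Nkg7, Cst7, Prss57, Srgn and Myb, held 44 Tet2-/- cells (0.459% of kept cells, 0.333 to 0.615) and 29 Tet2+/+ cells (0.248%, 0.166 to 0.357). The sort gates named for the libraries differ, and their part in these shares was not tested. Of 17 markers of myeloid progenitors, 14 were found in at least 10% of the Tet2-/- cells and 13 in at least 10% of the Tet2+/+ cells. Kit, the stem cell factor receptor, was detected in 79.5% and 62.1% of them. Cd34, a marker of the earliest progenitors, was at 15.1 CPM in Tet2-/- cells and at 0 in Tet2+/+ cells, and the early genes Gata2, Hlf and Cpa3 were at or near 0 in both. All 18 cycling markers were detected, with a summed level of 3885 CPM in Tet2-/- cells and 2689 CPM in Tet2+/+ cells. Transcripts of other myeloid lists were present as well. The 13 markers of mature neutrophils summed to 64520 CPM in Tet2-/- cells and 56795 CPM in Tet2+/+ cells, against 4870 and 4682 CPM for the 17 progenitor markers. The 13 immature neutrophil markers summed to 5110 and 9479 CPM and the 12 monocyte markers to 3056 and 1738 CPM, so that both lists differed between the libraries. Their part in the results on this class was not tested. Markers of T cells, NK cells, dendritic cells and mast cells summed to at most 11.1 CPM each. Its cells were deep, with a median of 35202 and 29871 UMIs, and 1 of the 44 Tet2-/- cells had no UMI of any of the 6 genes.

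The 6 transcripts were concentrated in these few cells. Together they made up 42979 CPM of progenitor-like RNA in the Tet2-/- library and 45378 CPM in the Tet2+/+ library. That placed 58.5% of all their UMIs (58.2 to 58.8) in 44 of 9596 Tet2-/- cells and 63.8% (63.4 to 64.2) in 29 of 11672 Tet2+/+ cells. The share differed by gene. Mpo was the most concentrated in the Tet2-/- library, with 78.3% of its UMIs in progenitor-like cells, against 77.7% in the Tet2+/+ library. Ctsg followed with 71.7% and 80.4%, Elane with 69.01% and 74.0%, and Prtn3 with 58.3% and 65.3%. Ms4a3 had 52.8% and 58.2% of its UMIs there. Fcnb stood apart with 13.7% and 13.5%, and its largest share, 38.6% and 49.2%, lay in cycling immature neutrophil-like cells.

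**Figure D1:**
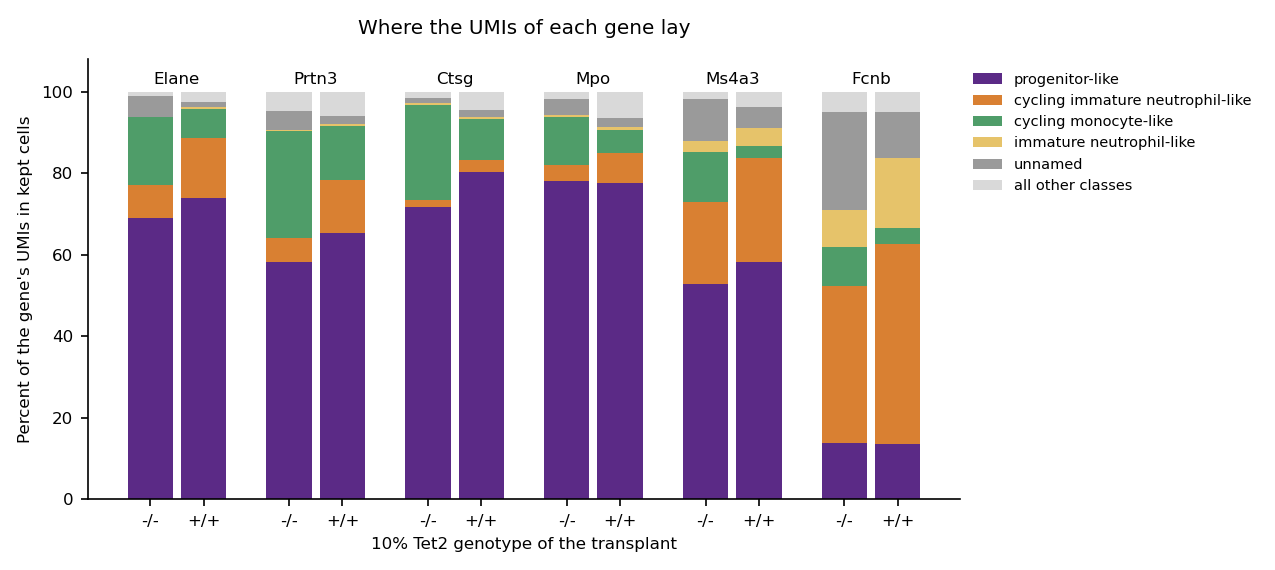
Each bar splits the UMIs of 1 gene in 1 library (-/- for 10% Tet2-/- BMT, +/+ for 10% Tet2+/+ BMT) over the classes of kept cells, in percent on the vertical axis. Progenitor-like cells hold most UMIs of Elane, Prtn3, Ctsg, Mpo and Ms4a3 and under 14% of those of Fcnb.

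Among the serine proteases, Elane had 15385 CPM in Tet2-/- progenitor-like cells and 16140 CPM in Tet2+/+ progenitor-like cells, from 23458 and 14569 UMIs. Prtn3 had 14553 and 16042 CPM. Ctsg had 4761 and 5194 CPM. All 3 proteases were slightly lower in the Tet2-/- library, with ratios of 0.953 (0.934 to 0.973), 0.907 (0.888 to 0.926) and 0.917 (0.883 to 0.951). Cell by cell the libraries overlapped almost fully. Elane had a median of 156 UMIs per 10000 in Tet2-/- cells, with a range of 0 to 333, and of 155 in Tet2+/+ cells, with a range of 84.3 to 266. Prtn3 had medians of 151 and 154 per 10000. For Ctsg the medians were 39.8 in Tet2-/- cells and 51.7 in Tet2+/+ cells, within ranges of 0 to 95.4 and 13 to 99.1.

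The other 3 genes were as close between libraries. Mpo had 5093 CPM in Tet2-/- and 4967 CPM in Tet2+/+ progenitor-like cells, a ratio of 1.03 (0.988 to 1.06). Ms4a3 had 1881 and 1860 CPM, a ratio of 1.01 (0.952 to 1.07). Fcnb had 1306 and 1175 CPM, a ratio of 1.11 (1.03 to 1.2). Fcnb also varied most from cell to cell relative to its level: its middle cells ran from 4.78 to 22.7 UMIs per 10000 in the Tet2-/- library and from 3.64 to 18.8 in the Tet2+/+ library, while those of Mpo ran from 39.1 to 57.4 and from 42.5 to 58.1 (lower to upper quartile). A gene was counted as higher or lower where its log2 ratio, with 10 CPM added, passed 1.5-fold, among genes with at least 50 CPM in either library and at least 100 UMIs over both. None of the 6 genes passed in progenitor-like cells, where 4.65% of 2451 eligible genes were higher in the Tet2-/- library and 1.26% were lower. With cells classed 1 by 1 from marker UMIs in place of clusters, Fcnb passed at 1.57.

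**Figure D2:**
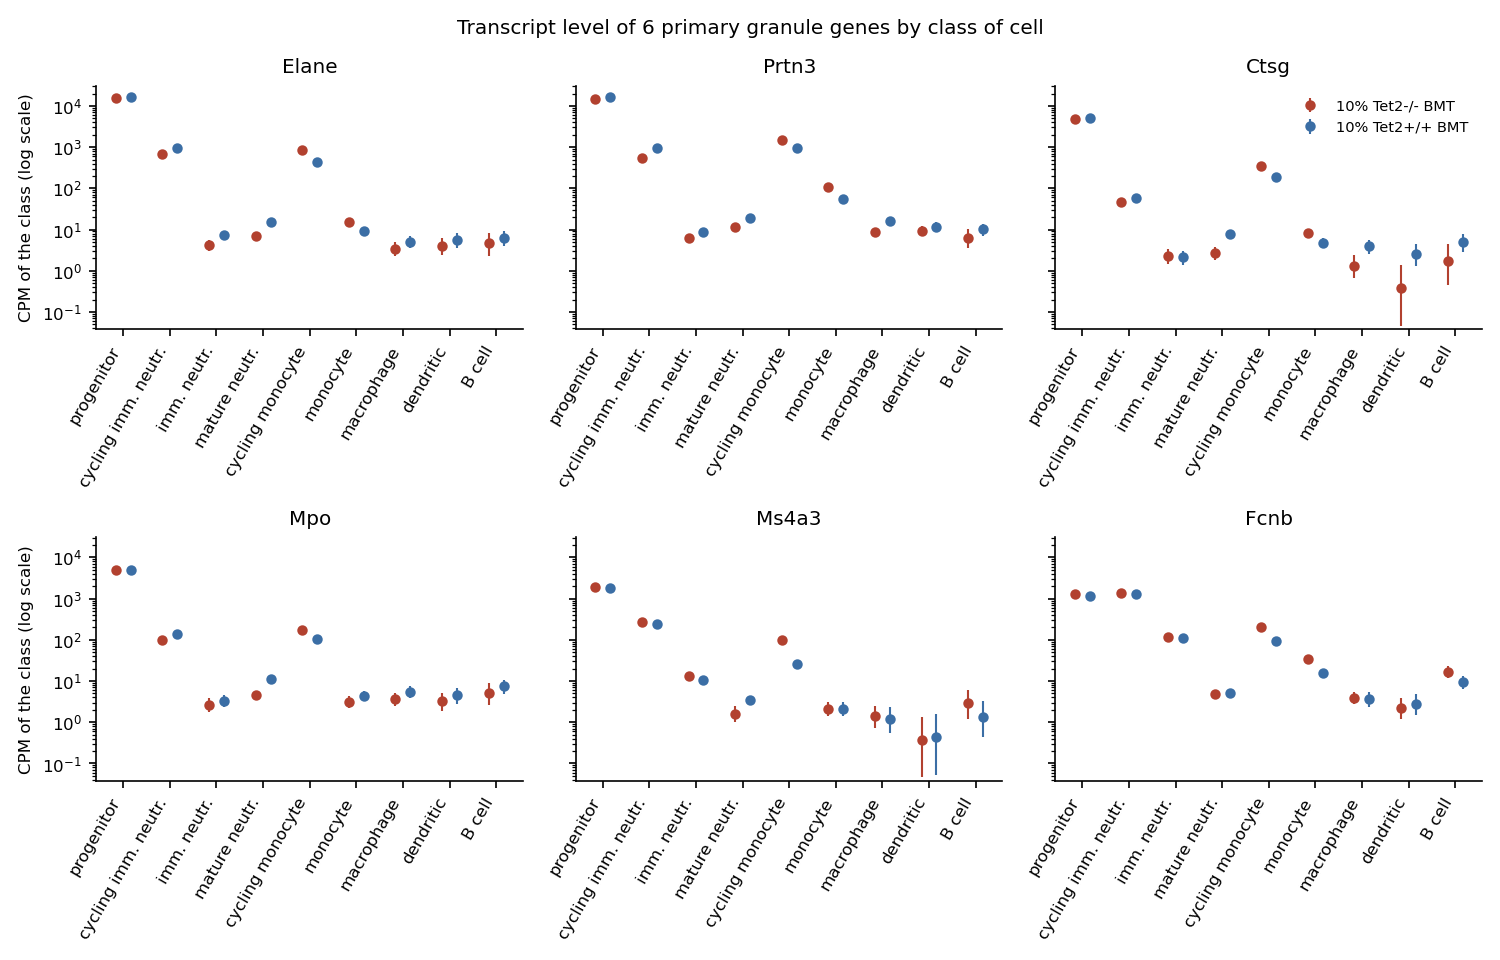
Each panel gives 1 gene and each point its level in CPM (log scale) in 1 class and library, with exact 95% counting intervals; a gene with no UMI would stand at the level of 3 counts. All 6 genes peak in progenitor-like cells except Fcnb, whose level in cycling immature neutrophil-like cells is 1393 and 1297 CPM.

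Along the neutrophil line, from progenitor-like to immature neutrophil-like cells, the levels of the 6 genes went down in a graded order. That of Fcnb went down only after the cycling immature class. Cycling immature neutrophil-like cells, led by Ngp, Camp and Ltf and numbering 203 in the Tet2-/- library and 131 in the Tet2+/+ library, are the next stage by their markers. Relative to its own level in progenitor-like cells, Ctsg stood there at 0.971% in the Tet2-/- library and 1.11% in the Tet2+/+ library. Mpo stood at 1.90% and 2.84%. Prtn3 stood at 3.82% and 6.09%, and Elane at 4.54% and 6.06%, so that these neighbours did not separate in the Tet2+/+ library. Ms4a3 kept 14.4% and 13.3% of its progenitor level. Fcnb kept all of it, at 107% (101 to 112) and 110% (103 to 118). In immature neutrophil-like cells outside the cycling class, 1083 and 1053 in number, Fcnb stood at 8.82% and 9.28%, Ms4a3 at 0.713% and 0.575%, and the proteases and Mpo at 0.067% or less in each library. Fcnb, the only eligible gene of the 6 in that class, did not pass the 1.5-fold rule, with 115 CPM in Tet2-/- cells and 109 CPM in Tet2+/+ cells; 3.88% of 1934 eligible genes were higher and 0.672% lower.

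The same cells were also ranged by lactoferrin, which describes the step within them more finely and is no second observation. Ltf encodes lactoferrin, the defining content of secondary granules, and the progenitor-like and cycling immature neutrophil-like cells were split into 4 ranges of its UMIs per 10000, with limits set after the values were seen. A range is not a cell type. Cells with at most 1 Ltf UMI per 10000 numbered 49 in the Tet2-/- library and 39 in the Tet2+/+ library, the next range (1 to 50) held 33 and 21, the range of 50 to 80 held 54 and 50, and the last held 111 and 50. The ranges largely follow the classes, since 42 of the 49 and 28 of the 39 cells of the first range were progenitor-like, 2 and 1 of the second, and none of the others.

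Elane stood at 14944, 2974, 88.6 and 19.96 CPM over these ranges in the Tet2-/- library and at 15190, 3127, 129 and 6.3 CPM in the Tet2+/+ library. Ctsg stood at 4537, 236, 8.4 and 2.0 CPM in the Tet2-/- library and at 4312, 744, 13 and 1.8 CPM in the Tet2+/+ library. Mpo stood at 4889, 438, 2.5 and 3.5 CPM, and at 4360, 748, 6.5 and 1.8 CPM. These 3 genes were at 20 CPM or less in cells rich in Ltf. Ms4a3 stood at 1835, 639, 182 and 165 CPM in the Tet2-/- library and at 1709, 554, 204 and 104 CPM in the Tet2+/+ library. Fcnb alone among the 6 was higher in the second range than in the first, with 1379, 3090, 1201 and 818 CPM in the Tet2-/- library and 1434, 2312, 1232 and 672 CPM in the Tet2+/+ library. The Fcnb peak thus lay in cells with some Ltf, not in those with the least. Prtn3 stood at 14125, 2154, 94.5 and 57.9 CPM in the Tet2-/- library and at 14810, 3514, 203 and 16.3 CPM in the Tet2+/+ library.

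**Figure D3:**
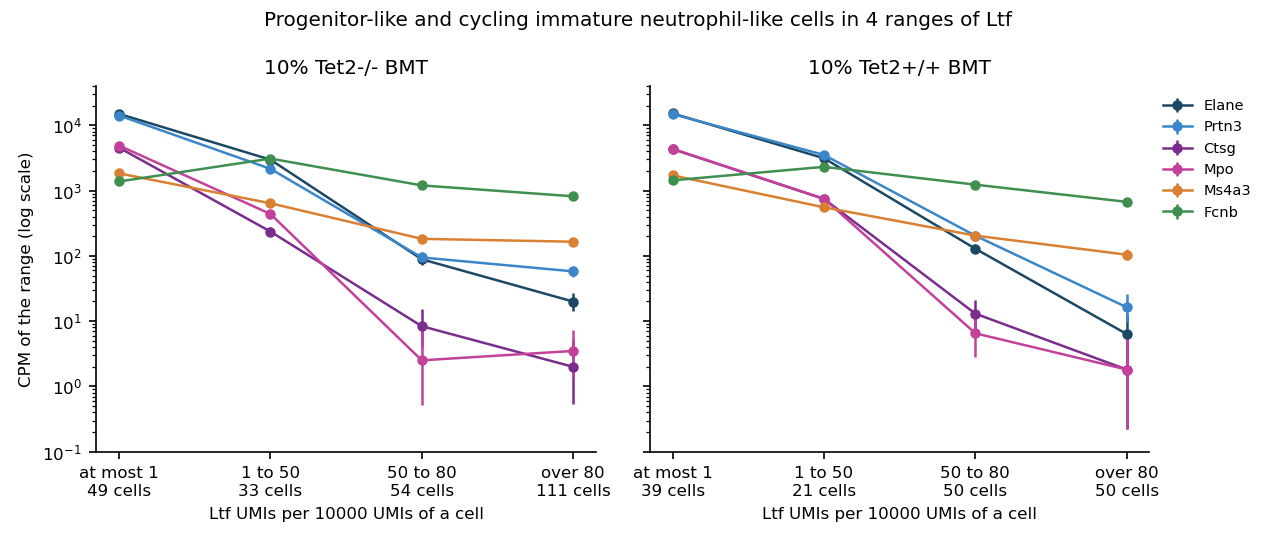
Levels of the 6 genes in CPM (log scale) over 4 ranges of Ltf UMIs per 10000 UMIs of a cell, with the 10% Tet2-/- BMT library on the left, the 10% Tet2+/+ BMT library on the right and exact 95% counting intervals. Ctsg and Mpo drop earliest, Ms4a3 declines slowly and Fcnb is highest in the second range.

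Detection per cell followed the levels. UMIs of all 6 genes were found together in 40 of 44 Tet2-/- progenitor-like cells (90.9%, 78.3 to 97.5) and in 29 of 29 Tet2+/+ cells (100%, 88.1 to 100). Among cycling immature neutrophil-like cells this held for 21 of 203 Tet2-/- cells and 19 of 131 Tet2+/+ cells, and in each library most cells of this class had 1 to 3 of the genes. To remove the difference in depth between classes, each cell was thinned to 1000 UMIs. Elane was then found in 97.7% and 100% of progenitor-like cells, and in 14.8% and 16.3% of cycling immature neutrophil-like cells. Fcnb was found in 63.6% and 55.2% of progenitor-like cells, and in 55.6% and 46.5% of cycling immature neutrophil-like cells. Unthinned, those shares were 97.7% and 100% of progenitor-like cells for Elane, with 30.05% and 39.7% in the cycling immature class, and 90.9% and 100% for Fcnb, with 84.2% and 93.1%. Elane was uneven within the cycling immature class: the median cell had no Elane UMI in either library, while the highest cell had 95.7 per 10000 in the Tet2-/- library and 170 in the Tet2+/+ library.

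**Figure D4:**
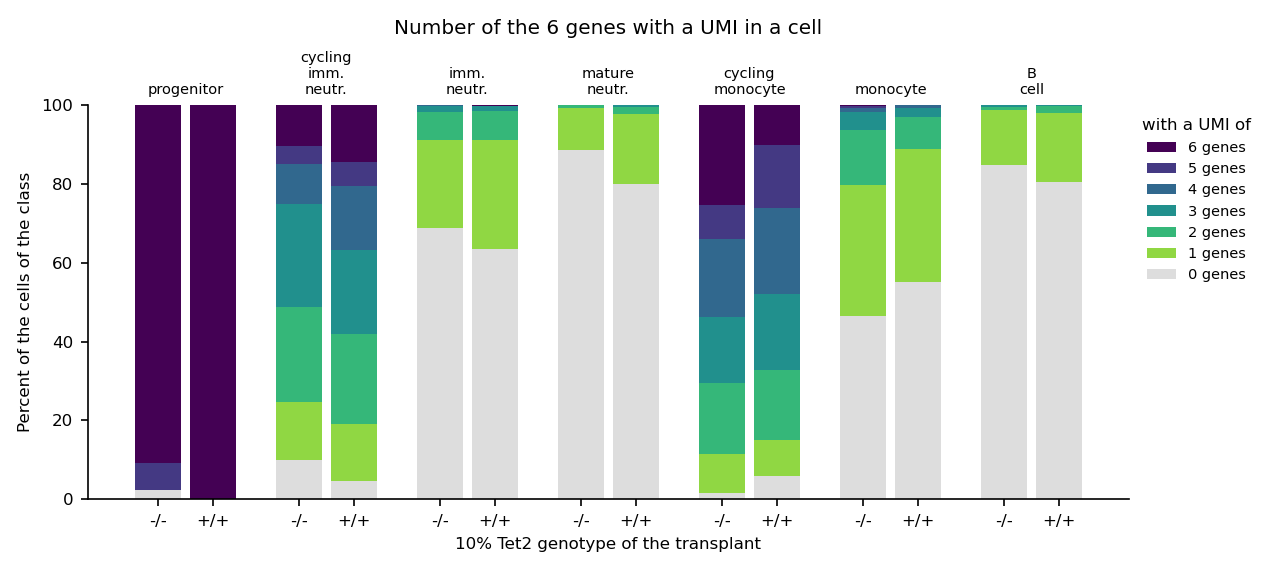
Each bar gives, for 1 class and library, the percent of cells with UMIs of 0 to 6 of the genes; -/- is 10% Tet2-/- BMT and +/+ is 10% Tet2+/+ BMT, and cells are not thinned. Cells with all 6 genes fill 90.9% and 100% of the progenitor-like class and are nearly absent from mature neutrophil-like, monocyte-like and B cell-like cells.

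Mature neutrophil-like cells, the largest class with 3288 and 4071 cells, carried few of these transcripts. Their summed level was 32.1 CPM in the Tet2-/- library and 62.4 CPM in the Tet2+/+ library. In B cell-like cells, which should lack the genes, it was 37.5 and 39.6 CPM. The 3 proteases and Mpo were not lower in mature than in immature neutrophil-like cells. Elane stood at 6.82 and 15.4 CPM in the mature class, against 4.15 and 7.45 CPM in the immature class. Ms4a3 and Fcnb were lower in the mature class. After thinning, Elane was found in 0.590% and 1.79% of mature neutrophil-like cells, against 0.610% and 0.561% of B cell-like cells; the median depths before thinning were 3643 and 3651 UMIs in the mature class and 5317 and 5314 UMIs in the B cell-like class. No mature neutrophil-like cell held 20 or more UMIs of the 6 genes together, and the highest had 3 UMIs in the Tet2-/- library and 6 in the Tet2+/+ library. In barcodes with 1 to 50 UMIs, which mostly hold free RNA, Elane was at 218 and 134 CPM and Prtn3 at 286 and 160 CPM. In barcodes of 51 to 200 UMIs the order was the other way, with Elane at 234 and 348 CPM and Prtn3 at 263 and 337 CPM. The ratio of the summed level in mature neutrophil-like cells turned from 0.514 to 2.63 when cells were classed 1 by 1 from marker UMIs in place of clusters. No gene of the 6 was eligible in this class, in which 3.3% of 2301 eligible genes were higher and 3.65% lower in the Tet2-/- library.

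In cycling immature neutrophil-like cells 1 of the 6 genes, Prtn3, was lower in the Tet2-/- library by the size rule. Prtn3 had 556 CPM in Tet2-/- cells and 976 CPM in Tet2+/+ cells, a ratio of 0.570 (0.539 to 0.602). Elane had 699 and 978 CPM, a ratio of 0.715 (0.679 to 0.753). Mpo had 96.9 and 141 CPM, a ratio of 0.686 (0.596 to 0.789), and Ctsg had 46.2 and 57.5 CPM, a ratio of 0.803 (0.649 to 0.995). Ms4a3 had 272 and 248 CPM, a ratio of 1.10 (0.996 to 1.2), and Fcnb had 1393 and 1297 CPM, a ratio of 1.07 (1.03 to 1.12). Of 2020 eligible genes, 0.446% were lower in the Tet2-/- library and 2.08% higher, with a median log2 ratio of 0.11 over all eligible genes and of -0.37 over the 6. The summed ratio was 0.829 (0.807 to 0.850). A further 83 Tet2-/- and 37 Tet2+/+ cycling cells with immature neutrophil markers were led by Igkc and left unnamed. Adding them moved the summed ratio to 1.03 and that of Prtn3 to 0.812, which ended its call, and that of Mpo to 1.10. Over all settings tried the ratio ran from 0.442 to 0.812 for Prtn3, from 0.475 to 0.908 for Elane, from 0.333 to 1.10 for Mpo and from 0.220 to 10.6 for Ctsg. The lowest of these ratios for Ctsg and Mpo came from cell-by-cell classing, and the highest for Ctsg from subtracting free RNA of barcodes with 51 to 200 UMIs, which left 30.4 CPM in Tet2-/- and 2.86 CPM in Tet2+/+ cells.

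Few cells carried these values. Split at 50 Ltf UMIs per 10000, a limit set after the values were seen, 38 of 203 Tet2-/- cells and 31 of 131 Tet2+/+ cells of the class lay below it and held 89.8% and 90.8% of its Prtn3 UMIs. They likewise held 94.8% and 94.3% of its Elane UMIs, but only 45.2% and 41.5% of its Fcnb UMIs. Prtn3 stood at 2437 CPM in those Tet2-/- cells and 4109 CPM in those Tet2+/+ cells, and at 71.6 and 115 CPM in the cells above the limit. In the range richest in Ltf the direction was the other way, at 57.9 and 16.3 CPM from 116 and 18 UMIs.

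Cycling cells with monocyte markers carried the genes as well. Cycling monocyte-like cells, marked by Ly6c2, Ccr2, F13a1 and Fn1, numbered 245 in the Tet2-/- library and 119 in the Tet2+/+ library. The profile over genes was not that of the neutrophil line. Relative to progenitor-like cells, Prtn3 stood at 10.2% and 5.78% and Ctsg at 7.38% and 3.63%, above Mpo at 3.41% and 2.15%. In cycling immature neutrophil-like cells, by contrast, Ctsg was the lowest of the 6 on this scale. Elane stood at 5.42% and 2.72%, Ms4a3 at 5.29% and 1.43%, and Fcnb at 16.0% and 8.11%.

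All 6 genes passed the size rule in this class, each higher in the Tet2-/- library, where 0.991% of 3026 eligible genes were higher and 1.06% lower. Their median log2 ratio was 0.89, against 0.01 over all eligible genes. Prtn3 had 1482 CPM in Tet2-/- cells and 927 CPM in Tet2+/+ cells, a ratio of 1.60 (1.53 to 1.67). Elane had 833 and 439 CPM, a ratio of 1.90 (1.79 to 2.01). Ctsg had 352 and 189 CPM, a ratio of 1.86 (1.70 to 2.04). The interval of Prtn3 lay below those of the other two proteases. Mpo had 174 and 107 CPM, a ratio of 1.63 (1.44 to 1.84). Ms4a3 had 99.6 and 26.6 CPM, a ratio of 3.74 (2.98 to 4.75), the widest gap of the 6. Fcnb had 210 and 95.4 CPM, a ratio of 2.20 (1.94 to 2.50). Cells with UMIs of all 6 genes made up 62 of 245 Tet2-/- cells (25.3%, 19.99 to 31.2) and 12 of 119 Tet2+/+ cells (10.1%, 5.32 to 17.0). When cells were classed 1 by 1 from marker UMIs, 2 of the 6 genes passed and the ratio of Mpo was 0.957. With cells thinned to 1000 UMIs, 2 of the 6 passed the size rule. Not passing the rule does not mean a ratio below 1.5, because the rule has minimums and adds CPM before the log. The plain ratio of Ms4a3 was 2.27 or more in all 19 settings. Subtracting free RNA as read from barcodes of 51 to 200 UMIs moved the ratio of Mpo to 4.05 and that of Ms4a3 to 53.7, with 1.65 CPM left in the Tet2+/+ library.

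The excess was uneven within the class. Divided further, a choice made after the data were seen, it split into cells led by Gzma (117 Tet2-/- and 50 Tet2+/+ cells) and cells led by Fn1 (127 and 69 cells). The Gzma-led cells held 86.2% of the member UMIs of the class in the Tet2-/- library and 73.4% in the Tet2+/+ library. On their own they would stay unnamed, because Gzma put more markers of NK cells than of monocytes among their 10 leading genes. The Gzma-led cells had 4900 and 3010 CPM of the 6 genes together, a ratio of 1.63, and 4 of the 6 passed the size rule. The Fn1-led cells had 958 and 839 CPM, a ratio of 1.14, and only Fcnb passed the size rule, at 1.77. The plain ratio of Ms4a3 was past 1.5-fold in the Fn1-led cells too, without passing the rule. There the ratio of Elane was 0.911 and that of Mpo 0.772, against the direction of the whole class. Gzma itself, a granzyme gene of cytotoxic lymphocytes, was at 91.0 CPM in Tet2-/- and 2.91 CPM in Tet2+/+ Gzma-led cells, while the NK markers Ncr1 and Klrb1c were at 5.35 and 4.55 CPM in the Tet2-/- cells and at 0 in the Tet2+/+ cells. The monocyte genes Fn1, Vcan, Ccr2 and Csf1r were lower in the Gzma-led than in the Fn1-led cells of each library. Ccr2 stood at 423 against 833 CPM in the Tet2-/- library and at 456 against 758 CPM in the Tet2+/+ library. The monocyte gene Ly6c2 went the other way, at 3041 against 2482 CPM and at 2766 against 2558 CPM. So did the progenitor markers Myb, at 21.9 against 5.41 CPM and 27.7 against 10.7 CPM, and Cd34, at 2.68 against 0.676 CPM and 10.9 against 5.05 CPM. Kit was at 1.12 CPM or less throughout. Over the whole class, the 17 progenitor markers summed to 909 CPM in Tet2-/- cells and 717 CPM in Tet2+/+ cells, the 13 markers of immature neutrophils to 17824 and 18913 CPM, and the 8 markers of NK cells to 70.1 and 5.07 CPM. Their part in the difference was not tested.

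**Figure D5:**
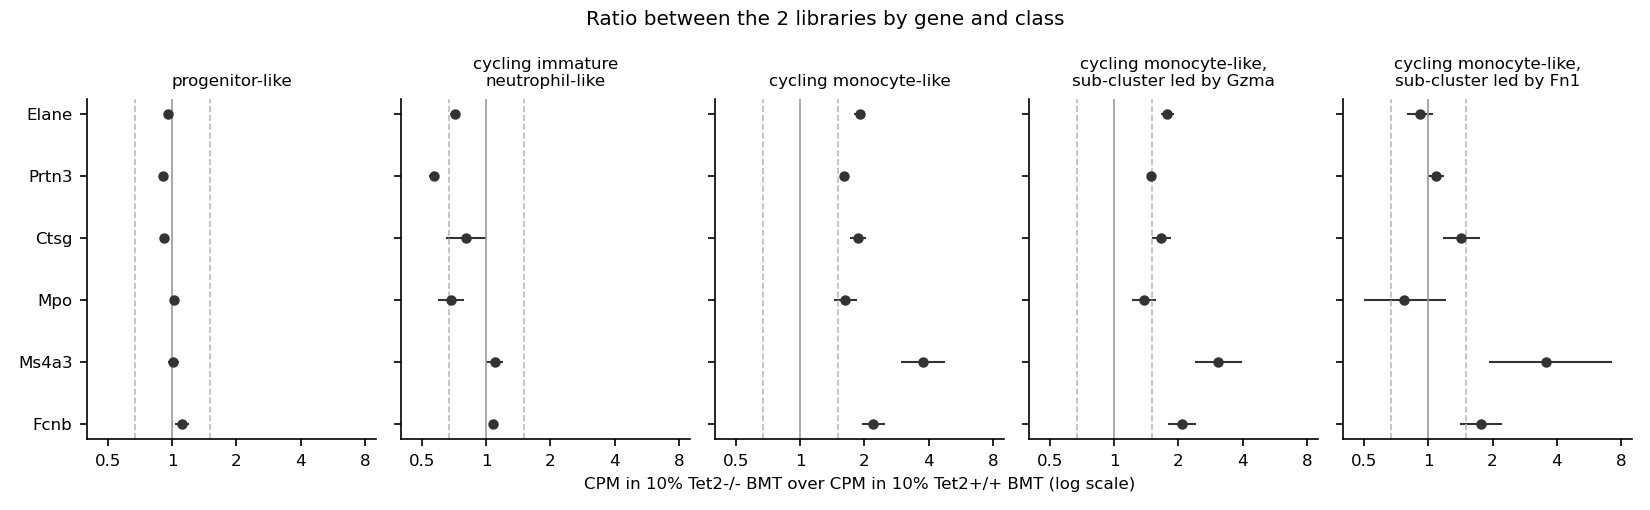
Points give the CPM of a gene in the 10% Tet2-/- BMT library over that in the 10% Tet2+/+ BMT library (log scale) with exact 95% counting intervals, for 3 classes and for the sub-clusters of cycling monocyte-like cells; dashed lines mark 1.5-fold in either direction. The 6 genes lie between 0.907 and 1.11 in progenitor-like cells and between 1.60 and 3.74 in cycling monocyte-like cells, and in the Fn1-led sub-cluster Elane and Mpo lie below 1.

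Among monocyte-like cells outside the cycling class, Prtn3 stood farthest of the 6 above its own level in B cell-like cells. It had 110 CPM in 956 Tet2-/- cells and 55.1 CPM in 1036 Tet2+/+ cells, a ratio of 2.00 (1.82 to 2.19), against 6.39 and 10.2 CPM in B cell-like cells. After thinning it was found in 6.81% and 4.55% of monocyte-like cells and in 0% and 1.495% of B cell-like cells, where 0 of 328 Tet2-/- cells allows, at that thinned depth alone, a share of up to 1.12%. Unthinned, those shares were 41.9% and 30.7% of monocyte-like cells and 3.96% and 6.17% of B cell-like cells. The 18 cycling markers moved with Prtn3: they summed to 137 CPM in Tet2-/- and 68.6 CPM in Tet2+/+ monocyte-like cells, were found in 47.7% and 35.8% of them, and 3 and 0 of the markers reached 10% of cells. Their part in the difference was not tested. Prtn3 was the only eligible gene of the 6 in this class and passed the size rule, as 0.733% of 2865 eligible genes did in that direction, with 0.977% lower. In the Fn1-led cluster alone, with 714 and 712 cells, the ratio was 1.95, and with free RNA subtracted (barcodes with 1 to 50 UMIs) it was 4.78. That subtraction took 17.3% of Tet2-/- and 26.4% of Tet2+/+ UMIs as free RNA, set from Camp, Ltf and Ngp in B cell-like cells. Prtn3 was at 286 and 160 CPM in those barcodes but at 6.39 and 10.2 CPM in B cell-like cells. The subtraction can thus take off too much Prtn3, and the value of 4.78 is uncertain. Fcnb had 33.5 and 15.5 CPM, against 16.6 and 9.34 CPM in B cell-like cells. Elane had 15.4 and 9.14 CPM, against 4.69 and 6.32 CPM in B cell-like cells, and Ctsg 8.08 and 4.76 CPM, against 1.70 and 4.95 CPM, while Mpo, at 3.18 and 4.37 CPM, lay below its B cell-like level of 5.11 and 7.42 CPM. In macrophage-like cells Prtn3 had 8.53 and 16.5 CPM, and in dendritic-like cells 9.29 and 11.4 CPM. Prtn3 was thus the only 1 of the 6 above 50 CPM in monocyte-like cells, and Fcnb the only 1 in immature neutrophil-like cells outside the cycling class.

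Other genes of granule building were read in the same cells from lists chosen with earlier results known. Of 8 genes that process or pack granule proteins, 7 were eligible in progenitor-like cells, with 0 higher and 1 lower in the Tet2-/- library and a median log2 ratio of -0.01, against 0.00 over all eligible genes. Srgn, the proteoglycan serglycin that packs granule contents, had 4735 CPM in Tet2-/- and 4736 CPM in Tet2+/+ cells. Serpinb1a, an inhibitor of the granule proteases, had 1140 and 1148 CPM, and Cd63, a tetraspanin of the azurophil granule membrane, had 891 and 1080 CPM. The gene that passed, named after its values were seen, was Hspa5, a chaperone of the endoplasmic reticulum, with 533 and 853 CPM. In cycling monocyte-like cells 7 of these 8 genes were eligible and none passed; Ctsc, the protease that activates the serine proteases, had 653 and 660 CPM there.

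Of 12 other azurophil granule genes, 8 were eligible in progenitor-like cells, with 1 higher, 0 lower and a median log2 ratio of 0.13. Lysozyme, Lyz2, was the higher gene, with 523 CPM in Tet2-/- and 323 CPM in Tet2+/+ cells. Prss57, a further serine protease of these granules, had 376 and 414 CPM. In cycling monocyte-like cells 0 of the 7 eligible genes of this list passed in either direction, with Lyz2 at 11951 and 15033 CPM and Ctsb, the lysosomal protease cathepsin B, at 434 and 472 CPM.

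Secondary granule genes gave 6 eligible of 8 in progenitor-like cells, with 1 higher and 2 lower. Their median log2 ratio was -0.42. Camp was lower, at 968 CPM in Tet2-/- and 5406 CPM in Tet2+/+ cells, as was Ltf, at 24.3 and 82.0 CPM, and Chil3, a chitinase-like protein, was higher, at 1081 and 610 CPM. In cycling monocyte-like cells 2 of 7 were higher and 1 lower: Chil3 had 2801 and 1379 CPM and Lcn2, a siderophore-binding protein, had 938 and 507 CPM, while Cd177, a surface protein of neutrophils, had 23.3 and 54.2 CPM. Of 7 tertiary granule and late genes, 3 of the 6 eligible were lower in that class, with a median log2 ratio of -0.66 over the list. They were Retnlg with 227 and 727 CPM, the gelatinase Mmp9 with 35.0 and 99.8 CPM, and the chemokine receptor Cxcr2 with 25.6 and 52.9 CPM. Of 10 transcription factors of granulopoiesis, none passed in progenitor-like cells (5 eligible), cycling immature neutrophil-like cells (4) or cycling monocyte-like cells (7). Cebpe, which is needed for secondary granules, had 292 and 368 CPM in progenitor-like cells, and Spi1, which encodes PU.1, had 316 and 281 CPM. Of a list of 6 protease inhibitors, 2 were eligible in progenitor-like cells. Slpi was higher there, with 576 and 276 CPM.

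Over 30 clusters of at least 50 cells, the levels of the 6 genes ran in parallel, with Pearson's r of 0.97 between Elane and Prtn3 and of 0.67 between Ctsg and Fcnb, the highest and lowest of the pairs. These are descriptions: the clusters share libraries and depth, and few of them hold the genes. Among 6275 other genes, Prss57 was closest to Mpo (r = 0.87), with r = 0.86 to Elane. Dmkn was closest to Ctsg (0.84), Ptgr1 to Prtn3 (0.87), 1700020L24Rik to Elane (0.88) and to Ms4a3 (0.93), and Pxylp1 to Fcnb (0.95).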

How the data were processed

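Single cells of mouse gingiva were measured with the Chromium 3′ kit in 2 libraries, 1 for each BMT group. Per the submitters' processing notes, reads were counted with Cell Ranger 6.1.2 on mm10, although per the file headers the matrices came from Cell Ranger 4. The deposited values are unnormalised UMI counts that include barcodes without cells; total UMIs were 93919724 (10% Tet2-/- BMT) and 100782700 (10% Tet2+/+ BMT). The handling of strand and of overlapping genes was not given in the sources used here.

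Barcodes with at least 500 UMIs, at least 250 genes and at most 10% mitochondrial UMIs were kept (python 3.11.15, scanpy 1.11.5, numpy 2.4.6, scipy 1.17.1). Scrublet marked 0 cells in either library, so the caller was taken not to have worked and no doublet was removed. Cells were scaled to 10000 UMIs and log-transformed; 2000 variable genes without the 6 members, 30 principal components and 20 neighbours gave 28 Leiden clusters at resolution 1 (leidenalg 0.10.2, igraph 0.11.9), of which the cycling clusters were split again at resolution 0.5. Names came from 19 marker lists without the members. A list needed at least 3 markers, each found in 10% of cells with a log2 excess of 0.5 (20 CPM added). Of the lists that met this, the one with the highest mean excess gave the name. A cluster stayed unnamed where another list had more markers among its 10 leading genes or where gland secretory transcripts led it. Shallow clusters without a marker among the leading genes stayed unnamed too. These thresholds were set after the clusters were seen. Of 2070 Tet2-/- and 3105 Tet2+/+ cells left unnamed, 54 and 15 held 20 or more UMIs of the 6 genes. UMIs were summed per class and library and scaled to CPM by the class total. Intervals are exact: Poisson for levels, binomial conditional on the total for ratios, and Clopper-Pearson for shares. The size rule, its minimums and the thinning to 1000 UMIs are stated with the results. The computation was tested on simulated data.

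The named genes are the 6 members and, from each related list, at most 4 genes at the highest CPM in a class; genes past the size rule outside these, and sub-cluster markers, were chosen after their values were seen. The 5 genes most like each member were ranked by Pearson's r. The members, lists and tests were chosen with earlier results of these data known. Gene positions are from GENCODE M21, which held 32158 of the 32285 identifiers, and promoters of all 6 members were found in the RefSeq table. Alternatives listed at the start were other minimums of UMIs and mitochondrial share, other resolutions, cells gated 1 by 1, members allowed among variable genes, subtraction of free RNA, thinning, per-cell means, removal of high doublet scores, TMM and median-of-ratios scaling, removal of shared barcodes, adding 1 CPM in place of 10 before the log, and a lower limit of 10 CPM for eligible genes. Chosen after seeing the data were free RNA read from barcodes of 51 to 200 UMIs, the sub-clusters of cycling monocyte-like cells, the addition of Igkc-led cells, the Fn1-led monocyte cluster alone and Xist-carrying against Y-carrying cells.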

Additional observations from a re-analysis of the deposited data

Results flagged for a closer look

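The ratio of the Tet2-/- BMT library over the Tet2+/+ BMT library lay on opposite sides of 1 in cycling monocyte-like and in cycling immature neutrophil-like cells for 4 of the 6 genes and for their sum. Elane stood at 1.90 in cycling monocyte-like cells and at 0.715 in cycling immature neutrophil-like cells. Prtn3 stood at 1.60 and 0.570, Ctsg at 1.86 and 0.803, Mpo at 1.63 and 0.686, and the sum of all 6 at 1.77 and 0.829. With 1 library per group the difference between the classes was not tested. In the Fn1-led sub-cluster of cycling monocyte-like cells Elane (0.911) and Mpo (0.772) lay below 1 as well, and with the Igkc-led cells added to the cycling immature class the summed ratio was 1.03 and that of Mpo 1.10. With free RNA of barcodes with 51 to 200 UMIs subtracted, Ctsg stood at 10.6 in the cycling immature class, with 2.86 CPM left in the Tet2+/+ library.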

How the results depend on the processing

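No paired analysis was possible because each group had 1 library, and for the same reason no replicate could be left out. Values below are ratios of the Tet2-/- BMT over the Tet2+/+ BMT library for the summed level unless stated. Of values that answer a comparison, 112 stayed within their counting interval or count range, 51 moved out of it and 1 turned round; of values of single genes, 484 stayed, 109 moved and 8 turned round. Where not stated otherwise, the cause was not tested. In progenitor-like cells the summed ratio was 0.846 with cells gated 1 by 1, 0.904 with cells thinned to 1000 UMIs, 0.921 with TMM scaling and 0.908 with median-of-ratios scaling. The percent of the 6 genes' UMIs in progenitor-like cells (Tet2-/- and then Tet2+/+) was 58.1 and 62.4 with at most 5% mitochondrial UMIs, 61.3 and 49.0 with gating, 65.0 and 76.5 with free RNA subtracted (barcodes with 1 to 50 UMIs), 51.7 and 50.6 with thinning, and 60.4 and 65.9 without the highest doublet scores; at resolution 0.5 it was 57.8 in the Tet2-/- library. In cycling immature neutrophil-like cells the ratio was 0.861 at resolution 0.5, 0.637 with gating, 0.867 with members among the variable genes, 0.804 with thinning, 0.690 for the mean of per-cell CPM, 0.901 without the highest doublet scores, 0.777 with TMM and 0.777 with median-of-ratios scaling, 0.872 with free RNA of barcodes with 51 to 200 UMIs subtracted and 1.03 with the Igkc-led cells added. Genes of the 6 lower there by the size rule numbered 4 with gating, 2 with thinning, 2 with either scaling and 0 with the Igkc-led cells. The share of all eligible genes that passed was not computed for these settings either. In immature neutrophil-like cells the summed ratio was 0.808 with gating, 0.895 for the mean of per-cell CPM and 1.13 for Xist-carrying against Y-carrying cells. The summed level of mature neutrophil-like cells was near that of B cell-like cells in the Tet2-/- library and above it in the Tet2+/+ library. Their summed ratio was 0.617 with TMM, 0.633 with median of ratios and 0.404 for Xist-carrying against Y-carrying cells, but 2.63 with gating. With gating the ratio of Elane was 3.03, of Prtn3 2.98, of Ctsg 1.45, of Mpo 1.27 and of Ms4a3 1.77. In cycling monocyte-like cells the summed ratio was 1.83 with at most 5% mitochondrial UMIs, 1.43 with gating (Mpo 0.957), 1.70 with thinning and 1.69 for the mean of per-cell CPM. It was 2.16 with free RNA of barcodes with 51 to 200 UMIs subtracted and 1.68 for Xist-carrying against Y-carrying cells. It was 1.63 in the Gzma-led and 1.14 in the Fn1-led sub-cluster (Elane 0.911, Mpo 0.772). Genes of the 6 higher there by the size rule numbered 2 with gating, 2 with thinning and 1 in the Fn1-led sub-cluster. These counts depend on the minimums of the rule and on the CPM it adds before the log. The number of the 6 genes eligible under these settings is not given here. The plain ratio of Ms4a3 was past 1.5-fold in all 19 settings of this class, with a lowest value of 2.27. In monocyte-like cells the summed ratio was 2.09 with gating, 1.72 with members among the variable genes, 1.65 with thinning and 5.96 with free RNA subtracted (barcodes with 1 to 50 UMIs). Free RNA was taken as 17.3% of Tet2-/- and 26.4% of Tet2+/+ UMIs from those barcodes. From barcodes with 51 to 200 UMIs it was taken as 22.6% and 34.7%. These shares were set from Camp, Ltf and Ngp in B cell-like cells and can be too large for other genes. The gates rest on a cut of 1% of UMIs from Camp, Ltf and Ngp, and 546 Tet2-/- and 505 Tet2+/+ cells lie between 0.5% and 2%. Depth limits the classes with few UMIs of the 6 genes, above all mature neutrophil-like cells.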
